A study of Mus musculus with 8 samples.

Results

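Inward rectifier potassium channels are built from subunits of the Kcnj gene family, and 10 of these genes are described here, chosen by name: Kcnj2, Kcnj3, Kcnj4, Kcnj6, Kcnj8, Kcnj9, Kcnj10, Kcnj11, Kcnj12 and Kcnj16. All 10 have a row among the 54446 genes of the deposited count table, and all 10 passed the filter on low counts, which left 17395 genes for testing. RNA-seq libraries were compared between 4 samples carrying the Scn2a gene trap on both copies (Scn2agt/gt, HOM replicates 1 to 4) and 4 samples of wild-type littermates (WT replicates 1 to 4), all of the strain labelled C75BL6 and bred from heterozygous parents. The labels name the mice as adult and the source as neuron, give no age, sex or brain region and do not state that the samples are different mice. The p-values therefore rest on the spread among these samples, which may be technical. The product of Scn2a is NaV1.2, a sodium channel with which neurons fire action potentials. In a gene trap, a cassette placed in the gene cuts its transcript short.

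An inward rectifier passes potassium more easily into the cell than out of it, because cytoplasmic polyamines and magnesium block the pore at depolarized voltages. Open channels hold the membrane near the potassium equilibrium potential and set its resting conductance. Every channel is a tetramer that needs the membrane lipid PIP2 to open. The members fall into 4 roles. GIRK subunits (Kcnj3, Kcnj6, Kcnj9) are opened by the beta-gamma subunits of inhibitory G proteins and carry slow inhibition of neurons. Subunits of the constitutively active Kir2 class (Kcnj2, Kcnj4, Kcnj12) set the resting potential of many neurons, striatal projection neurons among them. Pore subunits of ATP-sensitive channels (KATP; Kcnj11 in neurons, Kcnj8 in vascular mural cells) close when cellular ATP is high. Kcnj10 encodes the main potassium-buffering channel of astrocytes, is also made by oligodendrocytes, and assembles with the Kcnj16 subunit.

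The coding sequence that forms the potassium selectivity filter is shown for the 3 GIRK genes, for Kcnj2 and for the 2 KATP pore genes, because it holds both the motif common to them and the residue at which the KATP pore genes stand apart. Each sequence below runs 5′ to 3′ along the coding strand of a GENCODE M21 transcript (GRCm38), with the filter codons in capitals and 12 coding bases on either side in lower case.
Kcnj3: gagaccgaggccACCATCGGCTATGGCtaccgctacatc
Kcnj6: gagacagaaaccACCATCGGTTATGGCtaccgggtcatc
Kcnj9: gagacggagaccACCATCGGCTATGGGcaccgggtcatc
Kcnj2: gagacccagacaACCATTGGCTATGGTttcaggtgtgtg
Kcnj11: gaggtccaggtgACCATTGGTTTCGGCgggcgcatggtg
Kcnj8: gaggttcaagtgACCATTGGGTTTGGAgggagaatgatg
The capitals encode threonine, isoleucine, glycine, an aromatic residue and glycine. The aromatic codon reads tyrosine in the GIRK genes and Kcnj2 and phenylalanine in the KATP pore genes Kcnj11 and Kcnj8. Over whole coding sequences of the 10 members, identity in the 45 pairs lay between 56.0% and 79.3%. Kcnj4 and Kcnj12 were the closest pair, and their longest identical run, 32 bases, was the longest of any pair.

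Scn2a itself was lower in every HOM library. It stood at 121.7, 147, 131 and 111.6 CPM (read counts scaled to a common library total with TMM factors) in HOM replicates 1 to 4 and at 477, 371, 477 and 415 CPM in WT replicates 1 to 4, and HOM held 29.4% of the WT level (log2 fold change -1.77, SE 0.10, edgeR quasi-likelihood test, adjusted p = 1.16e-05). Total counts per library lay between 27993412 and 35339890 in HOM and between 29053382 and 37538988 in WT. Although the source is labelled neuron, markers of other cells were abundant: the 18 astrocyte markers summed to between 6073 and 7373 CPM in HOM and between 7280 and 8090 CPM in WT, beside 8888 to 9265 CPM in HOM and 9923 to 11100 CPM in WT for 10 neuronal markers (Nefl and Tubb3 at 0). A total of 12 choroid plexus markers summed to between 169 and 469 CPM in HOM and between 457 and 2907 CPM in WT, with WT replicate 4 highest. HOM replicate 4 held 2 counts over 4 Y-linked genes, against at least 4452 in every other library. Y-linked expression was thus not balanced between the genotypes, and sex, which the labels do not give, may not be either. In bulk samples such as these, fewer cells of a type and less RNA per cell cannot be told apart.

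The glial gene Kcnj10 fell in HOM, and it was the 1 member of the 10 to pass the test. No member rose, and 9 did not pass. Across all 17395 genes, 5.40% passed in either direction and 2.94% passed as lower and 2.47% as higher in HOM, so 1 call among 10 genes is not far from that background. The fitted change was negative for all 10 members, with log2 fold changes from -0.43 (Kcnj10) to -0.02 (Kcnj6 and Kcnj9). The median of the 10 was -0.19, against a median of 0.00 and 49.8% negative values over all genes tested. Marker lists also leaned negative for neurons (median -0.20, 7 of 8 negative), astrocytes (-0.12, 14 of 17), oligodendrocytes (-0.29, 12 of 12) and endothelial cells (-0.36, 8 of 8). Microglial (0.28, 0 of 9) and striatal (0.10, 2 of 9) markers leaned the other way. With upper-quartile scaling, which moves the median of all genes to 0.03, Kcnj6 and Kcnj9 turned positive, both at 0.01. Over 21 alternative settings, Kcnj6 turned positive in 6 and Kcnj9 in 3. Unadjusted p was below 0.05 for 4 members (Kcnj10, Kcnj2, Kcnj12 and Kcnj3), and for 22.9% of all genes. Values of the genotypes did not overlap for 1 member, Kcnj10, against 14.1% of all genes (7.47% with HOM lower).

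**Figure D1:**
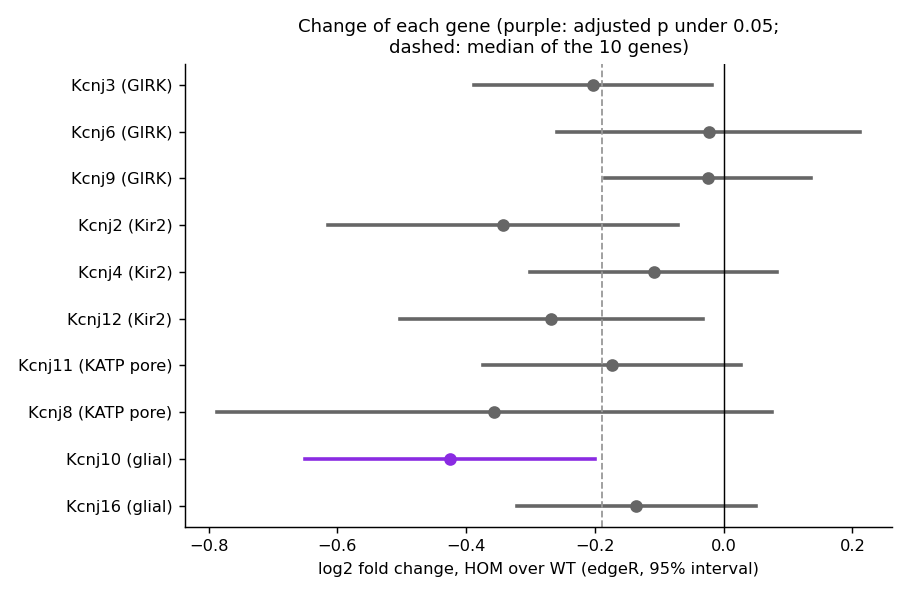
Log2 fold change of each of the 10 genes, HOM over WT (x axis), with its 95% interval from the edgeR fit (horizontal lines), n = 4 libraries each; purple marks an adjusted p under 0.05 and the dashed line the median of the 10 genes. All points lie below 0, the Kcnj10 interval runs from -0.65 to -0.20, and the intervals of Kcnj2, Kcnj12 and Kcnj3 also end below 0 without passing adjustment over all genes.

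Kcnj10 (ENSMUSG00000044708; chromosome 1 of GRCm38, 172341210 to 172374085, plus strand) overlaps no other annotated gene. Its level was 122.5, 161, 150.5 and 126.5 CPM in HOM replicates 1 to 4 and 175.5, 179, 176 and 222 CPM in WT replicates 1 to 4. All 4 HOM libraries lay below all 4 WT libraries, with HOM replicate 2 closest to WT and WT replicate 4 standing above the other WT libraries. The means were 140.1 ± 18.6 CPM in HOM and 188 ± 22.6 CPM in WT (SD, n = 4 each), a HOM level of 74.5% of WT. The fitted log2 fold change of -0.43 had an SE of 0.10 (edgeR adjusted p = 0.0369), and an exact two-sided permutation test of log2 CPM gave p = 0.0286, the smallest value that 70 relabellings allow. A total of 652 genes had a smaller p, and 4.92% of all genes had a log2 fold change at or below that of Kcnj10. The call was lost in 6 of 8 removals of a library: removing HOM replicate 1, 3 or 4 gave an edgeR adjusted p of 0.133, 0.0885 or 0.0842, and removing WT replicate 1, 3 or 4 gave 0.0523, 0.0779 or 0.0848. It stayed past the threshold without HOM replicate 2 (0.0222) or WT replicate 2 (0.0441).

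Kcnj16 (ENSMUSG00000051497; chromosome 11, 110968033 to 111027968, plus strand), the partner of Kcnj10 in heteromeric channels, did not pass. Its level was 21.2, 25.0, 25.3 and 21.7 CPM in HOM replicates 1 to 4 and 24.1, 27.1, 24.2 and 27.0 CPM in WT replicates 1 to 4. HOM replicates 2 and 3 lay inside the WT range and the other 2 HOM libraries below it. The log2 fold change was -0.14, with a 95% interval from -0.32 to 0.05 (edgeR adjusted p = 0.366). Within each library, log2 CPM of Kcnj10 exceeded that of Kcnj16 by 2.58 ± 0.07 in HOM and 2.87 ± 0.13 in WT (SD, n = 4 each). This difference was 0.29 smaller in HOM, and HOM and WT libraries did not overlap (exact two-sided permutation test, p = 0.0286, adjusted p = 0.200 over the 7 subunit pairs compared). On its own, 1 separated pair of 7 has that adjusted p at best. A level relative to a partner does not depend on the scaling factor.

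**Figure D2:**
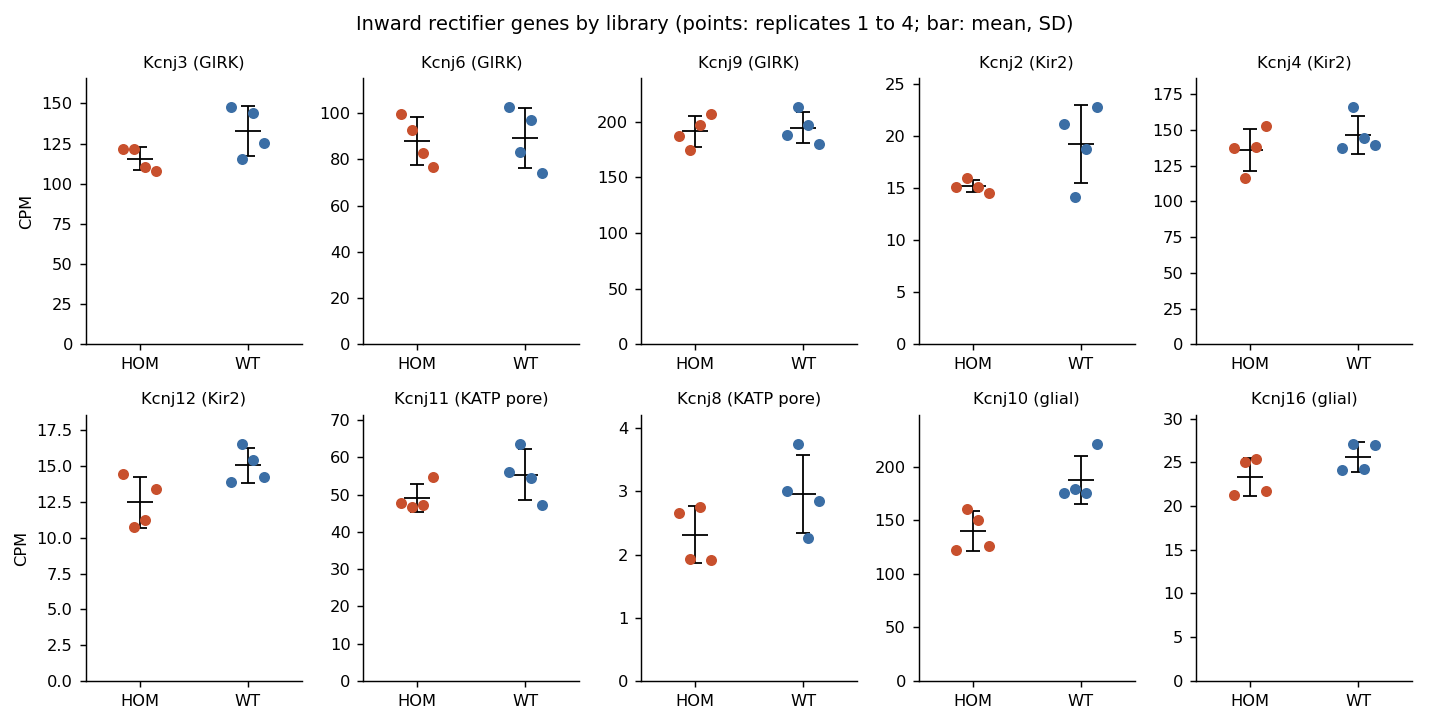
CPM of each of the 10 genes in each library (points, replicates 1 to 4 from left to right), HOM left and WT right, with mean and SD (black); each panel starts at 0 and has its own scale. The genotypes are separate for Kcnj10 only, and the WT libraries of Kcnj2 spread more widely than the HOM libraries.

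Few single glial markers passed the test, while the summed levels of astrocyte and oligodendrocyte markers ranked the libraries within each genotype as Kcnj10 did. The summed astrocyte level was 6073, 7373, 7041 and 6692 CPM in HOM replicates 1 to 4 and 7280, 7996, 7986 and 8090 CPM in WT replicates 1 to 4. The 12 oligodendrocyte markers summed to 3476, 4251, 4155 and 3824 CPM in HOM replicates 1 to 4 and to 4062, 4591, 4556 and 6048 CPM in WT replicates 1 to 4. Within each genotype, the libraries ranked in the same order by Kcnj10, by the astrocyte sum and by the oligodendrocyte sum. Replicate 1 was lowest in both genotypes, and HOM replicate 2 and WT replicate 4 were highest. Abundant markers weigh most in these sums: Slc1a2 alone averaged 2724 CPM in HOM and 3319 CPM in WT. After centring within genotype, Kcnj10 followed the mean log2 CPM of the lists unequally. Pearson r over the 8 libraries was 0.714 for astrocyte and 0.928 for oligodendrocyte markers, without a test. The astrocyte sum overlapped between the genotypes through HOM replicate 2 and WT replicate 1, and the oligodendrocyte sum through HOM replicates 2 and 3 and WT replicate 1, while Kcnj10 did not overlap. Of 17 astrocyte markers tested, 1 fell and none rose, with a median log2 fold change of -0.12. Of all genes, 2.94% passed as lower and 2.47% as higher. The marker that fell was Aqp4, the water channel gene of astrocyte endfeet, at a log2 fold change of -0.40 (SE 0.10, edgeR adjusted p = 0.0417; 36.7% of its span is shared with other genes). It passed in 2 of 8 removals, those of HOM replicate 2 and WT replicate 2. Slc1a2, the main glutamate transporter of astrocytes (-0.29, edgeR adjusted p = 0.0639), and Glul, the glutamine synthetase gene (-0.29, edgeR adjusted p = 0.0880), did not pass. Gfap stands at 0 in every library, and its span is covered in full by other annotated genes. None of the 12 oligodendrocyte markers passed in edgeR, although all 12 had negative values (median -0.29). An unadjusted edgeR p under 0.05 was found for 9 of them, where 12.5% of all genes had one and were lower. DESeq2 called 4 lower and limma-voom none. Over all genes and in both directions together, DESeq2 called 1846 of the 27873 genes with a p-value. That set, unlike the 17395 genes of edgeR, was not first filtered on low counts, so its share is not directly comparable. The smallest p among the 12 oligodendrocyte markers was that of the myelin protein gene Mal (-0.39, edgeR adjusted p = 0.0589). Microglial markers had the opposite sign: of 9 tested, 1 rose, where 2.47% of all genes passed as higher, none fell and none had a negative value (median 0.28). The gene that rose, C1qa, passed in 2 of 8 removals of a library.

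Relative to the mean log2 CPM of the 17 astrocyte markers, Kcnj10 stood at -0.28 ± 0.14 in HOM and 0.01 ± 0.10 in WT (SD, n = 4 each). It was thus 0.29 lower in HOM, again without overlap (exact two-sided permutation test, p = 0.0286, adjusted p = 0.0571 over the 2 glial genes, the lowest that 1 separated gene of 2 can reach). Kcnj16 relative to the same markers stood at -2.86 ± 0.10 in HOM and -2.86 ± 0.07 in WT, a difference of 0.00 (exact two-sided permutation test, p = 0.971). Relative to the 12 oligodendrocyte markers, a comparison added after the data were seen and not tested, Kcnj10 stood at 0.30 ± 0.07 in HOM and 0.45 ± 0.06 in WT, and HOM replicate 2 lay above WT replicate 4. With the astrocyte level as a covariate the Kcnj10 log2 fold change was -0.27 (edgeR adjusted p = 0.202) and with the oligodendrocyte level it was -0.17 (edgeR adjusted p = 0.503). With choroid plexus markers as the covariate it was -0.32 (edgeR adjusted p = 0.446), and with both replicates 4 removed it was -0.28 (edgeR adjusted p = 0.134). The part of these cell types in the Kcnj10 result was not tested beyond these values.

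**Figure D3:**
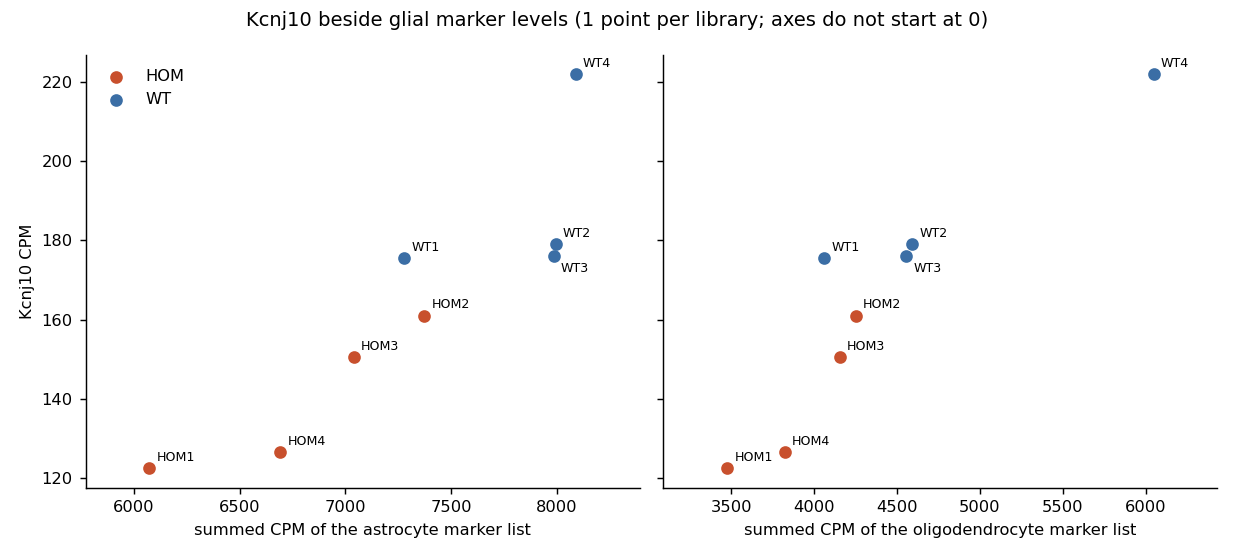
Kcnj10 CPM (y axis) against the summed CPM of the astrocyte list (left) and of the oligodendrocyte list (right), 1 point per library, HOM in orange and WT in blue; neither axis starts at 0. Kcnj10 climbs with both sums within each genotype, HOM libraries reach at most 161 CPM and WT libraries start at 175.5 CPM, and WT replicate 4 is highest on every axis.

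After each gene was centred within genotype over the 8 libraries, the 5 protein-coding genes whose log2 CPM followed Kcnj10 most closely were Clic4 (Pearson r = 0.997), Myrf (0.993), Elovl5 (0.985), Ttyh2 (0.982) and Hus1 (0.978). Myrf encodes the transcription factor that drives myelin genes in oligodendrocytes, and it averaged 44.2 CPM in HOM and 55.9 CPM in WT. Neither Myrf (log2 fold change -0.34, edgeR adjusted p = 0.127) nor Clic4 (-0.40, edgeR adjusted p = 0.0554) passed the test. These values describe the closest of many genes over few libraries and carry no test.

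The GIRK genes did not pass. Kcnj3 (ENSMUSG00000026824; chromosome 2, 55435970 to 55598145, plus strand) encodes the subunit that gives neuronal GIRK channels their strong G-protein response and needs a partner to reach the surface. It stood at 121.7, 121.8, 110.5 and 108 CPM in HOM replicates 1 to 4 and at 148, 115, 144 and 125 CPM in WT replicates 1 to 4. WT replicate 2 lay among the HOM libraries and the other 3 WT libraries lay above all of them. The log2 fold change was -0.20, with a 95% interval from -0.39 to -0.02 (SE 0.08, unadjusted p = 0.0334, adjusted p = 0.176, edgeR), and the exact two-sided permutation test gave p = 0.114. Kcnj3 ends 10 Mb before Scn2a on the same chromosome, and 31.1% of its exonic sequence is shared with the noncoding gene Gm26794.

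Kcnj6 (ENSMUSG00000043301; chromosome 16, 94748636 to 94997701, minus strand), the subunit that can form channels alone and is the common core of GIRK channels in brain, had values of 99.7, 92.6, 82.9 and 76.7 CPM in HOM replicates 1 to 4 and 103, 83.4, 97.3 and 74.2 CPM in WT replicates 1 to 4. The genotypes overlapped over almost their whole range. Kcnj9 (ENSMUSG00000038026; chromosome 1, 172320501 to 172329318, minus strand), whose protein lowers surface levels of GIRK channels by routing them to lysosomes, had 187, 174.6, 197.5 and 207 CPM in HOM replicates 1 to 4 and 188, 213, 197 and 180.2 CPM in WT replicates 1 to 4. Both ranges again overlapped. The log2 fold changes were -0.02 for each, with 95% intervals from -0.26 to 0.21 for Kcnj6 and from -0.18 to 0.14 for Kcnj9, which for Kcnj9 spans HOM levels of 0.880 to 1.10 times WT. Log2 CPM of Kcnj3 exceeded that of Kcnj6 by 0.40 ± 0.08 in HOM and 0.58 ± 0.13 in WT (SD, n = 4 each; exact two-sided permutation test, p = 0.0571, adjusted p = 0.200 over 7 pairs). The differences of Kcnj3 and Kcnj6 from Kcnj9 changed by -0.17 and 0.01 between genotypes (exact two-sided permutation tests, p = 0.257 and p = 1).

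The Kir2 genes did not pass either, although their point estimates were lower than those of Kcnj6 and Kcnj9. Kcnj2 (ENSMUSG00000041695; chromosome 11, 111066164 to 111076821, plus strand), the classical strong inward rectifier also found in heart and vessels, had 15.2, 16.0, 15.1 and 14.6 CPM in HOM replicates 1 to 4 and 21.2, 14.2, 18.8 and 22.8 CPM in WT replicates 1 to 4. HOM libraries were tightly grouped, and WT replicate 2 lay below all of them while the other 3 WT libraries lay above. The log2 fold change was -0.34, with a 95% interval from -0.62 to -0.07 (unadjusted p = 0.0176, adjusted p = 0.126, edgeR; exact two-sided permutation test, p = 0.143). Without WT replicate 2 it was -0.46 and passed (edgeR adjusted p = 0.0225). Its neighbour Kcnj16, whose gene ends 38.2 kb before Kcnj2 starts, had the smaller change given above, and Kcnj16 minus Kcnj2 overlapped between HOM and WT (exact two-sided permutation test, p = 0.343, adjusted p = 0.686 over 12).

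Kcnj4 (ENSMUSG00000044216; chromosome 15, 79483714 to 79505241, minus strand), a forebrain member concentrated at postsynaptic sites through PDZ scaffolds, had 137.4, 117, 138 and 153 CPM in HOM replicates 1 to 4 and 137.2, 166, 144.5 and 139 CPM in WT replicates 1 to 4. HOM replicate 2 lay below the WT range and the other 3 HOM libraries inside it. The log2 fold change was -0.11, with a 95% interval from -0.30 to 0.08 (edgeR adjusted p = 0.493). Kcnj12 (ENSMUSG00000042529; chromosome 11, 61022564 to 61071131, plus strand), another strong rectifier, had 14.5, 10.8, 11.3 and 13.4 CPM in HOM replicates 1 to 4 and 13.9, 16.6, 15.4 and 14.3 CPM in WT replicates 1 to 4. HOM replicate 1 lay inside the WT range and the other 3 HOM libraries below it (log2 fold change -0.27, 95% interval from -0.50 to -0.03, unadjusted p = 0.0288, adjusted p = 0.162, edgeR). With 1 surrogate variable, a fitted hidden factor, Kcnj4 (-0.17, edgeR adjusted p = 0.038) and Kcnj12 (-0.32, edgeR adjusted p = 0.0341) passed. None of the 3 differences between Kir2 genes passed, with adjusted p of 0.267 or more over 7 pairs (exact two-sided permutation tests).

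Of the KATP pore genes, Kcnj11 (ENSMUSG00000096146; chromosome 7, 46093953 to 46100764, minus strand) had 47.8, 46.6, 47.2 and 54.7 CPM in HOM replicates 1 to 4 and 56.2, 63.7, 54.5 and 47.1 CPM in WT replicates 1 to 4. HOM replicate 4 stood above the other HOM libraries and WT replicates 3 and 4 lay inside the HOM range (log2 fold change -0.17, 95% interval from -0.37 to 0.03, edgeR adjusted p = 0.283). Kcnj8 (ENSMUSG00000030247; chromosome 6, 142564837 to 142571614, minus strand) was the lowest member, between 1.92 and 2.76 CPM in HOM and between 2.26 and 3.76 CPM in WT, or 55 to 114 counts in a library. Its log2 fold change of -0.36 had the widest interval, from -0.79 to 0.07 (edgeR adjusted p = 0.304). The sulfonylurea receptor genes, whose proteins complete KATP channels, lie beside the pore genes. Abcc9, 16.2 kb from Kcnj8, fell to 6.95 ± 0.77 CPM in HOM, against 9.995 ± 1.06 CPM in WT (SD, n = 4 each; log2 fold change -0.53, SE 0.11, adjusted p = 0.0250 by edgeR), and lost its call without HOM replicate 1, 3 or 4 or WT replicate 1 or 3. Mural cell markers, the cells in which Kcnj8 and Abcc9 are made together, summed to between 142 and 167 CPM in HOM and between 179.7 and 193 CPM in WT. Of these 10 markers 1 fell (Myh11, -0.74) and none rose, where 2.94% of all genes passed as lower and 2.47% as higher. Myh11 passed in 4 of 8 removals of a library. The median of the 10 mural markers was -0.22, with 8 values negative and those of Higd1b (0.30) and Ndufa4l2 (0.14) positive. All 8 endothelial markers had negative values (median -0.36), with Flt1 and Cdh5 lower past the threshold. Flt1 and Cdh5 each passed in 2 of 8 removals of a library. The part of these cells in the Abcc9 result was not tested. Abcc8, 3.76 kb from Kcnj11, did not pass (-0.10, SE 0.07, edgeR adjusted p = 0.400).

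The contrast between glial and neuronal members was tested within libraries, as log2 CPM of Kcnj10 or Kcnj16 minus that of each GIRK and Kir2 gene. All 6 differences of Kcnj10 were lower in HOM, by 0.11 (from Kcnj2) to 0.41 (from Kcnj6), and 3 of 6 differences of Kcnj16 were lower. None of the 12 passed: the smallest p was 0.0857, for Kcnj10 minus Kcnj9, and the smallest adjusted p was 0.686 (exact two-sided permutation tests, Benjamini-Hochberg over 12). With 4 libraries each, 1 fully separated difference would have an adjusted p of 0.343, and 7 of the 12 would have to separate fully to pass, so the adjusted test had little room to call any. Kcnj10 minus Kcnj9 was -0.61, -0.12, -0.39 and -0.71 in HOM replicates 1 to 4 and -0.10, -0.25, -0.17 and 0.30 in WT replicates 1 to 4, so that HOM replicate 2 lay within the WT range and the other 3 HOM libraries below it. These 2 genes are neighbours on chromosome 1, 11.9 kb apart on opposite strands. The call of Kcnj10 beside the missing calls of the neuronal genes is no test of whether glial and neuronal members changed differently, and the within-library differences leave that undecided. By role, the median log2 fold change was -0.02 for the 3 GIRK genes, -0.27 for the 3 Kir2 genes, -0.26 for the 2 KATP pore genes and -0.28 for the 2 glial genes.

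**Figure D4:**
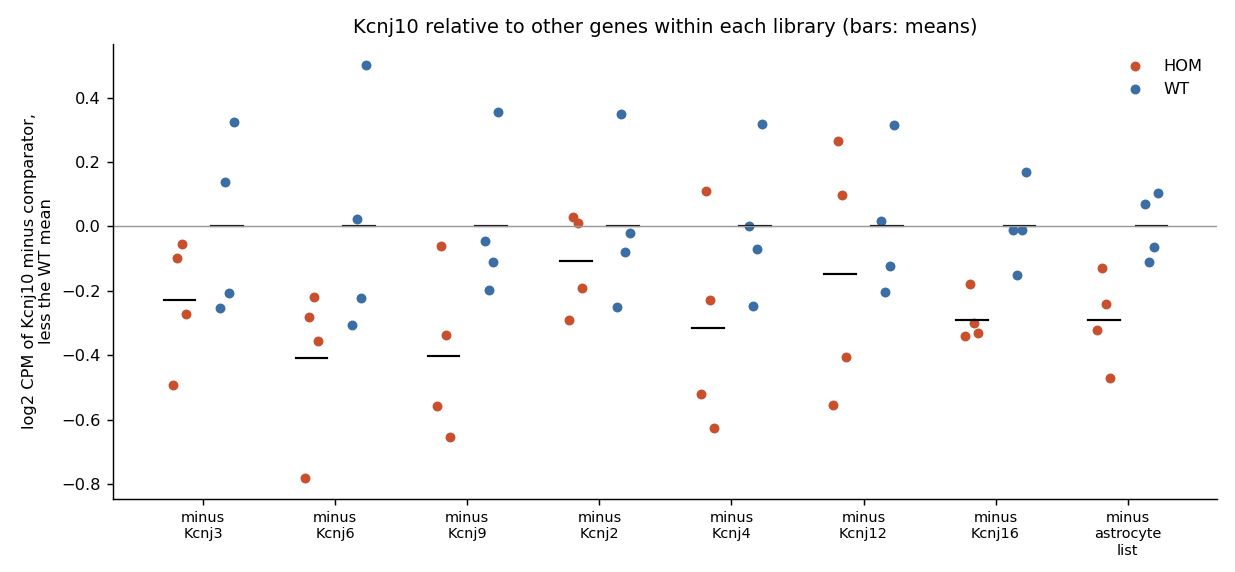
Log2 CPM of Kcnj10 minus that of each comparator within a library, less the WT mean of that difference (y axis), for the 6 GIRK and Kir2 genes, Kcnj16 and the astrocyte list mean; points are libraries, black bars means, HOM left and WT right of each pair. HOM means lie between 0.11 and 0.41 below WT, and the genotypes are separate against Kcnj16 and the astrocyte list but overlap against each of the 6 neuronal genes.

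Levels were compared between genes per kb of annotated exon. Kcnj4 was highest, at 63.2 ± 6.89 CPM per kb in HOM and 68.2 ± 6.19 CPM per kb in WT, which placed it above 96.9% of tested protein-coding genes. Kcnj9 followed with 44.7 ± 3.23 CPM per kb in HOM and 45.4 ± 3.32 CPM per kb in WT. Kcnj10 came next, at 25.9 ± 3.45 CPM per kb in HOM and 34.8 ± 4.18 CPM per kb in WT (SD, n = 4 each). Behind these in both genotypes were Kcnj3 (22.1 in HOM and 25.5 in WT), Kcnj11 (13.4 in HOM and 15.1 in WT), Kcnj6 (11.5 in HOM and 11.7 in WT), Kcnj16 (5.92 in HOM and 6.50 in WT), Kcnj12 (4.54 in HOM and 5.47 in WT), Kcnj2 (2.79 in HOM and 3.54 in WT) and Kcnj8 (0.909 in HOM and 1.16 in WT). Neighbours in this order had separate library ranges except Kcnj11 and Kcnj6 in both genotypes, and Kcnj10 and Kcnj3 in HOM. Of the summed per-kb level of the 10 genes, Kcnj10 took 13.3% ± 2.10 in HOM and 16.0% ± 2.25 in WT, and Kcnj4 took 32.4% ± 2.53 in HOM and 31.3% ± 1.81 in WT. The counts appear to include intronic reads, so the exon-based value overstates genes with long introns. Per kb of gene span, Kcnj9 ranked highest (21.7 CPM per kb in HOM and 22.1 in WT), Kcnj11 stood at 7.21 in HOM and 8.13 in WT and Kcnj4 at 6.32 in HOM and 6.82 in WT, while Kcnj6, whose gene spans 249066 bases, stood at 0.353 in HOM and 0.359 in WT. The low end changed as well. Kcnj12 was lowest per kb of span (0.257 in HOM and 0.310 in WT), below Kcnj8 (0.342 in HOM and 0.438 in WT). Kcnj2 (1.43 in HOM and 1.81 in WT) stood above Kcnj3 (0.712 in HOM and 0.820 in WT).

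**Figure D5:**
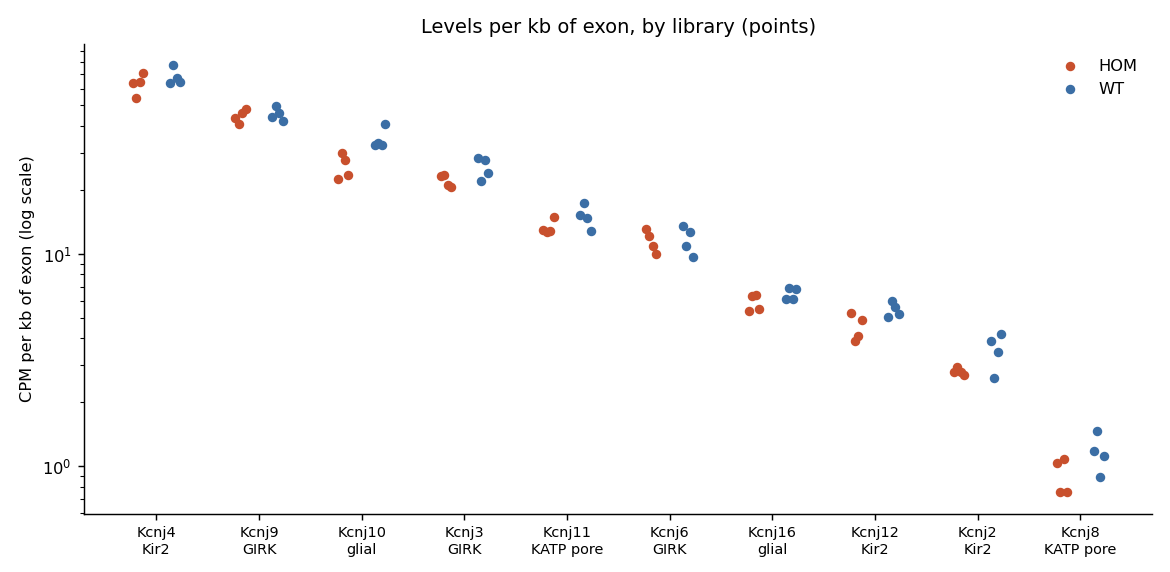
CPM per kb of exon (log scale) of each of the 10 genes in each library (points), HOM left and WT right of each pair, ordered by mean level. Per kb of exon, Kcnj4 and Kcnj9 are highest, Kcnj2 and Kcnj8 lowest, and differences between genes are far wider than those between genotypes. The order differs per kb of gene span.

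Among the remaining Kcnj genes, none passed the test in edgeR, DESeq2 or limma-voom, and none had an unadjusted edgeR p under 0.05. Kcnj14 averaged 1.92 ± 0.14 CPM in HOM and 2.42 ± 0.18 CPM in WT without overlap (SD, n = 4 each; log2 fold change -0.34, edgeR adjusted p = 0.222), and Kcnj5 averaged 1.59 ± 0.36 CPM in HOM and 1.88 ± 0.29 CPM in WT (-0.24, edgeR adjusted p = 0.520). Kcnj1 had at most 2 counts in a library and did not pass the filter on low counts before the edgeR test. Kcnj13 and Kcnj15 stand at 0 in every library, and each has its span covered in full by other annotated genes, so these zeros do not measure expression.

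Among 23 tested receptors that open GIRK channels through inhibitory G proteins, 4 fell, 19 did not pass and none rose, where 2.94% of all genes passed as lower and 2.47% as higher. Their median log2 fold change was -0.12, against 0.00 over all genes. Neuronal markers had a median of -0.20, with 7 of 8 negative and Gad1 (-0.48) and Snap25 (-0.33) lower past the threshold, and of 8 cortical markers Lamp5 (-0.84) and Neurod6 (-0.29) fell. Gad1 and Lamp5 passed in all 8 removals of a library, Snap25 in 5 and Neurod6 in 1. The part of these markers in the receptor values was not tested. Grm2, a presynaptic metabotropic glutamate receptor gene, fell to 48.7 ± 4.55 CPM in HOM, against 65.3 ± 4.94 CPM in WT (SD, n = 4 each; -0.42, SE 0.08, edgeR adjusted p = 0.0175). The neuropeptide Y receptor gene Npy1r (-0.41, edgeR adjusted p = 0.0252), the adenosine receptor gene Adora1 (-0.28, edgeR adjusted p = 0.0316) and the muscarinic receptor gene Chrm4 (-0.27, edgeR adjusted p = 0.0389) fell as well. The Grm2 call was lost without HOM replicate 1 or WT replicate 3, those of Npy1r and Adora1 without HOM replicate 1, 3 or 4 or WT replicate 1 or 3, and Chrm4 passed only without WT replicate 2. The GABA-B receptor gene Gabbr1, whose product is the main activator of GIRK channels in cortex, averaged 676 ± 7.93 CPM in HOM and 750.3 ± 28.2 CPM in WT and did not pass (-0.15, SE 0.06, edgeR adjusted p = 0.134).

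Of 22 tested G-protein subunits and GIRK regulators, 2 fell, 1 rose and 19 did not pass (median -0.03), beside the same shares of 2.94% lower and 2.47% higher over all genes. In this list limma-voom called 3 lower and none higher. Rgs4, whose product speeds the closing of GIRK channels by turning off G proteins, fell to 240.7 ± 19.3 CPM in HOM, against 340.7 ± 22.0 CPM in WT (SD, n = 4 each; -0.50, SE 0.07, edgeR adjusted p = 0.00497), and passed in all 8 removals of a library. Rgs4 also passed with the astrocyte covariate, but not with the choroid plexus covariate (edgeR adjusted p = 0.0583). No gene of this list passed with the oligodendrocyte covariate. The G-protein gamma subunit gene Gng4 fell (-0.31, edgeR adjusted p = 0.0191), but not without HOM replicate 3 or WT replicate 3. Kctd8, which encodes an auxiliary subunit of GABA-B receptors, rose (0.34, edgeR adjusted p = 0.0466), but not in limma-voom, and among the removals passed only without HOM replicate 3. Rgs7bp, which anchors the RGS complex that acts on GIRK channels, did not pass (-0.37, edgeR adjusted p = 0.0542). An unadjusted p under 0.05 was found for 22.9% of all genes. In both directions together, limma-voom called 956 of 17395 genes and DESeq2 called 1846 of the 27873 with a p-value, more than the 940 of edgeR. None of 14 genes of PIP2 synthesis and breakdown passed (median -0.07; 6 at an unadjusted p under 0.05, edgeR; 4 called by DESeq2 and 0 by limma-voom), the lowest p being that of the phospholipase gene Plcg1 (0.43, edgeR adjusted p = 0.0678; 71.6% of its span is shared with other genes). None of 14 scaffold partners of Kir channels passed either (median -0.05; 4 at an unadjusted p under 0.05, edgeR; 1 called by DESeq2 and 0 by limma-voom), the lowest p being that of the dystroglycan gene Dag1 (-0.20, edgeR adjusted p = 0.0640).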

How the data were processed

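The authors deposited raw whole-number read counts per Ensembl gene for 8 libraries, without normalization. GRCm38 is the build and FastQC 0.11.3, featureCounts, STAR and edgeR the tools listed, per the submitters' processing notes. The sources used here do not give the other versions, the annotation, the counted feature or the use of strand. Names and positions came from GENCODE M21 (54409 of 54446 identifiers matched). Of 1343 protein-coding genes whose span other genes cover in full, 1284 stood at 0, against 13.4% of the rest, so counts are taken to cover whole gene bodies without regard to strand.

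Counts were tested with edgeR 4.0.16 under R 4.3.3 (quasi-likelihood F test), TMM scaling and filterByExpr defaults (about 10 counts in 4 libraries, 15 in all), with Benjamini-Hochberg adjustment over 17395 genes and a threshold of 0.05. SE is the absolute log2 fold change over the square root of F. Log2 CPM used a prior count of 2. Permutation tests (scipy 1.17.1) were exact and two-sided. On simulated data with 200 changed genes of 17395, the test recovered 54.0% of 1.5-fold and 83.7% of 2-fold changes, with 2.86% of calls false. Alternatives used DESeq2 1.42.0, limma 3.58.1 and sva 3.50.0. No 2 libraries agreed within sampling noise (lowest chi-square per degree of freedom 7.03). The members and all lists were chosen with earlier results of these data known. Named genes are the 10 members, the other measured Kcnj genes, Scn2a, up to 4 genes of smallest p per list with others added to give a value, and the 5 genes most like each called member. Depth limits mainly Kcnj8. The filter sequences of the other 4 members are not reported here.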

Additional observations from a re-analysis of the deposited data

Results flagged for a closer look

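Kcnj10 in WT replicate 4 stood at 221.9 CPM, while the other 3 WT libraries lay between 175.5 and 179.0 CPM. The gap took 0.926 of the WT range, above Dixon's 95% critical value for 4 samples. That library also held the highest choroid plexus and oligodendrocyte sums, 2907 and 6048 CPM. Kcnj11 in HOM replicate 4 stood at 54.74 CPM, while the other 3 HOM libraries lay between 46.6 and 47.8 CPM, a gap of 0.858 of the HOM range. HOM replicate 4 is the library with almost no Y-linked counts. Chance alone marks about 1 in 20 groups, and 20 groups of member levels and 46 groups of within-library differences were examined, so 2 such libraries are no excess. Kcnj10 without WT replicate 4 had a log2 fold change of -0.34 (edgeR adjusted p = 0.0848), and Kcnj11 without HOM replicate 4 had one of -0.21 (edgeR adjusted p = 0.217).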

How the results depend on the processing

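Lower members numbered 1 with no filter, a filter of 1 CPM, upper-quartile or RLE scaling, DESeq2, robust quasi-likelihood and limma-voom. They numbered 3 with 1 surrogate variable, 0 with the replicate block, the choroid plexus, astrocyte or oligodendrocyte covariates or without both replicates 4, and 0 to 2 with 1 library left out. No setting called a higher member. The Kcnj10 log2 fold change was -0.43 with the replicate block (edgeR adjusted p = 0.0709), -0.32, -0.27 and -0.17 with the choroid plexus, astrocyte and oligodendrocyte covariates, -0.28 without both replicates 4, and -0.49 to -0.34 with 1 library left out. Kcnj6 reversed to 0.0090 with upper-quartile scaling and 0.039 with 1 surrogate variable, and ranged from -0.10 to 0.055 with 1 library left out. Kcnj9 reversed to 0.0088 with upper-quartile scaling and ranged from -0.061 to 0.028. The cause was not tested. Genes past the threshold, 940 in all, numbered 1846 with DESeq2, 364 with the replicate block, 2587 with 1 surrogate variable, 38, 132 and 49 with the choroid plexus, astrocyte and oligodendrocyte covariates, 335 without both replicates 4 and 180 to 1187 with 1 library left out. Partner genes are the tested sulfonylurea receptors (2), GIRK-opening receptors (23), G-protein subunits and GIRK regulators (22), PIP2 genes (14) and scaffold partners (14). Of these, 8 passed in the main fit, where 5.40% of all genes passed. With the alternatives just listed they numbered 17, 4, 21, 0, 1, 0, 2 and 1 to 9 in the same order. Same-numbered libraries did not deviate together (correlations from -0.196 to 0.0473), so the block rests on a shared number only. Both glial covariates were chosen after seeing the data. The median glial-minus-neuronal difference ranged from -0.17 to -0.03, the median subunit-pair difference from -0.23 to -0.09 and Kcnj10 minus astrocyte markers from -0.34 to -0.23 with 1 library left out.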
